A study of Mus musculus with 2 samples.

Results

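The erythroid factors and red cell membrane genes are a set of 30 genes that work in red cell development: transcription factors, the erythropoietin receptor and iron uptake genes, membrane and membrane skeleton genes, and enzymes. They were taken from a written list by gene symbol, and 29 of the 30 were matched to a row of the gene tables. Ahsp, the chaperone of alpha globin, was not analysed here. For description, 20 were called erythroid-restricted from textbook knowledge and 10 widely expressed. The erythroid-restricted set still holds factors such as Gata1, Gfi1b and Tal1, which megakaryocytes and mast cells also use. The widely expressed set in turn holds Nfe2, a factor of erythroid cells and megakaryocytes, and Zfpm1, which encodes a cofactor of GATA1. The division is thus not clean, and values given by set depend on it. The list was written with the levels of these genes and their ratio between libraries already known, so both are given as a description with no test.

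Total RNA was measured in 2 libraries that the labels call megakaryocyte, made from primary cells of male C57BL/6J mice at 5 to 6 weeks of age. Each library started from 100 ng of RNA depleted of ribosomal RNA, and the sizes stated run from 221 to 1000 nucleotides in library 1 and from 200 to 1000 in library 2. In the labels they are biological replicate 1 and biological replicate 2 of a single group with 1 donor named for both, with no genotype change, treatment or second group. Whether separate animals or pools lie behind the numbers is not stated, so each SD below measures only the spread between these 2 libraries.

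Red cells form in the bone marrow from a progenitor that they share with megakaryocytes, the cells that shed platelets. GATA1, with its cofactor FOG1 and with TAL1, opens the erythroid program, and KLF1 then drives the genes of hemoglobin, the membrane and the blood group antigens. The finished membrane is a lipid layer tied to a spectrin and actin mesh at the band 3 and ankyrin complex and at the protein 4.1 junction, which lets the cell deform and recover its shape.

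Summed estimated read counts were 42703213 in library 1 and 50532821 in library 2. Platelet genes went against the label of the cells. Of 15 megakaryocyte and platelet genes, 4 reached a level of 1 TPM, the length-corrected unit of the deposited tables, in both libraries, and Gp5 and Gp6 had 0 counts in both. Another 6, Gp1bb, Treml1, Ppbp, Gp9, Pf4 and Gp1ba, had 0 counts in library 1 and 3 to 34.51 counts in library 2. The 15 genes summed to 12.98 TPM and 15.08 TPM in libraries 1 and 2, and the most abundant were the integrin chains Itgb3 at 5.92 and 5.66 TPM and Itga2b at 3.26 and 4.89 TPM, then the receptor P2rx1 at 2.42 and 2.85 TPM. Genes of neutrophils summed to 14502.3 and 13779.7 TPM and genes of monocytes and macrophages to 6966.1 and 9227.01 TPM. The libraries are therefore called the libraries labelled megakaryocyte, or library 1 and library 2.

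Most members stood at a few TPM or less, and the median member lay above 59.2% of nuclear protein-coding genes by mean level. A TPM value is a transcript's share, corrected for length, of everything listed for a library, so levels of different genes can be compared. The median member stood at 1.85 TPM in library 1 against 1.11 in library 2. The median nuclear protein-coding gene stood at 0.28 and 0.27 TPM. In all, 16 of 29 members (55.2%) reached 1 TPM in both libraries, against 42.4% of nuclear protein-coding genes. Of the 19 erythroid-restricted members measured, 7 reached it, 7 were under it in both libraries, with a median of 1.52 TPM in library 1 against 0.66 in library 2. Of the 10 widely expressed members, 9 reached it, and the medians were 3.59 and 3.20 TPM. Summed over members, the erythroid-restricted set made up 33.16 TPM in library 1 against 17.41 in library 2, and the widely expressed set 114.35 and 103.27 TPM. In RNA from a mixture of cells, fewer cells of a type and less RNA per cell cannot be told apart.

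**Figure D1:**
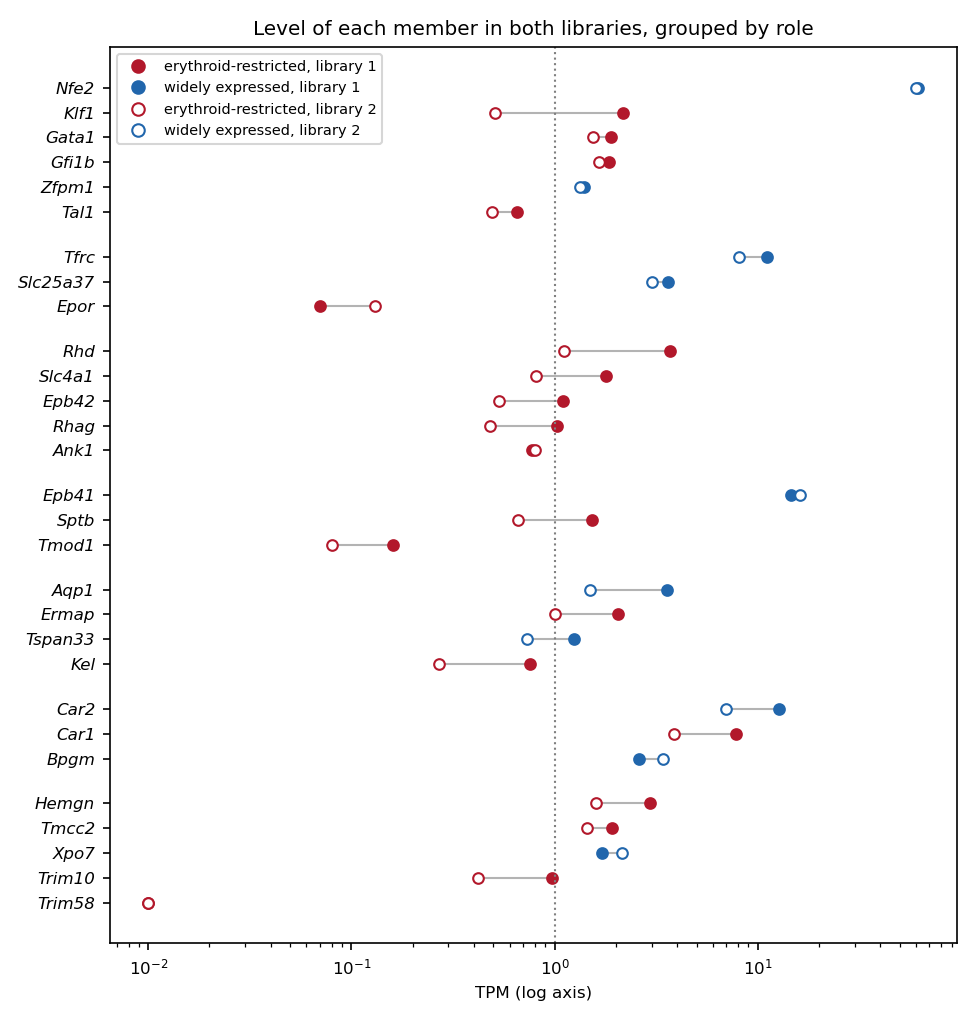
The level of each of the 29 measured members in TPM on a log axis, filled for library 1 and open for library 2, red for erythroid-restricted and blue for widely expressed members, grouped by role, with a dotted line at 1 TPM. Nfe2 stood highest at 61.82 and 59.91 TPM, and most red pairs lie near or under 1 TPM with the open point to the left.

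Most members had fewer reads in library 2 than in library 1. The count ratio is the estimated count in library 2 over that in library 1 after division by each library's total, so a log2 ratio of -1 is a 2-fold lower share in library 2. Of 28 members that averaged 10 or more counts, 11 were 2-fold or more lower in library 2 and 0 were 2-fold or more higher, where 5.34% of 12081 genes were as far below and 4.63% as far above. The list was chosen with this ratio in view, so nothing is read from that count. The median log2 ratio was -1.09 over the 18 erythroid-restricted members that passed the count minimum and -0.40 over the 10 widely expressed members, beside 0.004 over all genes and -0.016 over the 5078 genes whose mean counts lay in the range of the erythroid-restricted members. Among those 5078 genes, 9.59% were 2-fold or more lower and 7.62% as far higher. Of the members 25 of 28 were lower by any amount, where 49.5% of all genes were. At a limit of 1.5-fold, 19 members were lower and 2 higher, beside 9.74% and 8.21% of all genes. There was 1 library on each side, and the ratio compares these libraries, not conditions. The 95% intervals given with it are exact Clopper-Pearson intervals of the share of the counts that lay in library 2. They hold counting error alone, and because the reads carried no molecular identifiers they may count 1 molecule more than once.

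The erythroid-restricted members had mostly negative log2 ratios. The interquartile range of these ratios was 0.41, and it was also 0.41 over all 12081 genes. Over the 5078 genes with mean counts of 17.5 to 906 it was 0.77. Epor alone sets the lower end of that range, and 16 of the 18 members had a mean count of 100 or more. The 5078 genes may thus carry more counting error than the members. The list was also chosen with this ratio in view, so nothing is read from these spreads. The middle 50% of the log2 ratios of the erythroid-restricted members ran from -1.25 to -0.85, and 12 of 18 had between 1.9 and 2.6 times the scaled count in library 1. In 17 of the 18 the whole counting interval lay below 0, and in 10 it included a 2-fold lower value. The interval lay wholly past 2-fold in 4, namely Klf1, Rhd, Sptb and Slc4a1. The interval counts and the count between 1.9 and 2.6 were not made over all genes. The list was chosen with this ratio in view, so nothing is read from them. The widely expressed members were spread more, with the middle 50% between -0.90 and -0.09, 8 of 10 below 0 and Bpgm and Xpo7 above. Erythroid-restricted members had mean counts of 17.5 to 906 and widely expressed members 164 to 7799.5, so the sets also differed in the number of reads behind each ratio. Of the 29 measured members, 10 overlap the span of another gene model, so some of their reads may come from it. The deposited posterior SD of the count was 0 for all of these but Slc25a37. The spans are those of GENCODE M21, not of M4, the release named for the deposited tables. Zfpm1, Slc25a37, Ank1, Epb41, Kel, Car1 and Xpo7 do so on the same strand, and Slc25a37, Ank1, Epb41, Xpo7, Sptb, Tmod1 and Tmcc2 on the other strand. The sources used here do not say whether counting used strand.

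**Figure D2:**
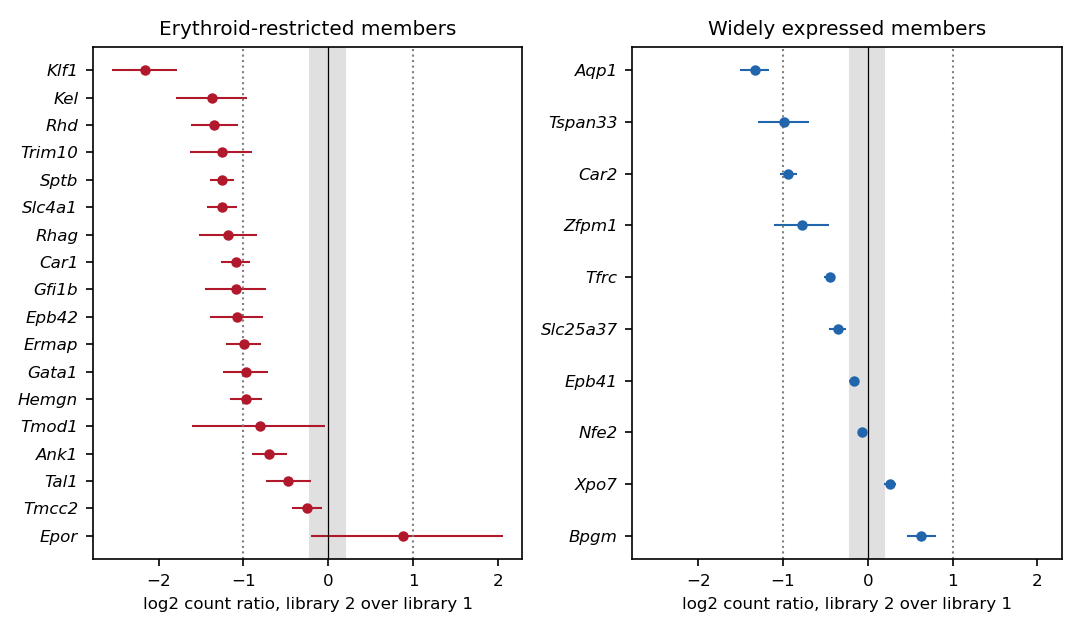
The log2 count ratio of library 2 over library 1 for the 28 members that passed the count minimum, with 95% counting intervals as bars. The gray band holds the middle 50% of all 12081 genes, from -0.22 to 0.20, and dotted lines mark 2-fold. In the left panel 17 of 18 points lie below 0, with Klf1 lowest and Epor alone above.

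Promoters of the members that were lowest in library 2 are shown because GATA1 and KLF1 are themselves members and act through known DNA words. Upstream windows of 250 bases were taken from RefSeq annotation of GRCm38.p6, and 22 of 30 members matched 28 windows. The build named for the deposited tables is mm10. The GATA words searched on both strands were AGATAA and its variant AGATAG, together with TGATAA and its variant TGATAG. The 3 erythroid-restricted members with the lowest ratio, a mean count of 100 or more and a GATA word were Klf1, Kel and Rhd. Their sequences run 5′ to 3′ in the direction of the gene, end before the annotated gene in Klf1 and Rhd and on its first base in Kel, where the GATA word nearest the gene ends, and show each GATA word in capitals (in Klf1 it lies on the opposite strand). Klf1 is read from the plus strand at chr8:84901732-84901927, Kel from the minus strand at chr6:41704339-41704575 and Rhd from the plus strand at chr4:134864286-134864535.
Klf1: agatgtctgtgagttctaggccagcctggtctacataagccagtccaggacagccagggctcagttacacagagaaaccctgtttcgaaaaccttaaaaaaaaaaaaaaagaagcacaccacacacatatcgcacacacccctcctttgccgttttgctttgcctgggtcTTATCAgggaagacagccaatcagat
Kel: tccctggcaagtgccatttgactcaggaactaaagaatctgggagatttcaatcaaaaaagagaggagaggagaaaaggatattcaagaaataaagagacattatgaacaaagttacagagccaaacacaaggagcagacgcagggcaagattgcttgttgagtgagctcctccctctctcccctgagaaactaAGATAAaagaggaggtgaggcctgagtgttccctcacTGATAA
Rhd: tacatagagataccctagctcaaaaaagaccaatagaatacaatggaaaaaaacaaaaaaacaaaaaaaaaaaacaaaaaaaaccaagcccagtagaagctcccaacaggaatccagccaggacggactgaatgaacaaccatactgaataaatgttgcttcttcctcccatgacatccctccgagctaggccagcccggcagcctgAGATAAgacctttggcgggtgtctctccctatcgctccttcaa
The word in Klf1 began 80 bases before the RefSeq start, those in Kel 56 and 19 bases before it, and that in Rhd 43 bases before it.

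Among erythroid-restricted members 13 of 19 windows held a GATA word (68.4%), as did 1 of 9 windows of widely expressed members (11.1%) and 26.5% of all 32851 windows. Counted by gene, 13 of 16 erythroid-restricted members had at least 1 window with the word, and Gata1, Sptb and Tmod1 did not. By the same count, 1 of 6 widely expressed members and 29.7% of all 27025 genes had it. The KLF word CCNCNCCC, a form of the CACC box that KLF factors read, was in 9 of 19 windows of the erythroid-restricted members (47.4%), in 8 of 9 windows of widely expressed members (88.9%) and in 45.9% of all windows. The windows differed in base composition, with a median G and C content of 52.0% for the erythroid-restricted set, 64.8% for the widely expressed set and 52.4% for all. A GATA word and a KLF word can share at most 1 base. Windows of 1 gene share sequence, and a word in a window is a description and not a bound site.

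The transcription factors included the member with the highest level and the member with the lowest ratio. Nfe2 (chr15:103248212-103258403, minus strand), the large subunit of a factor used by both erythroid cells and megakaryocytes, had 7315 and 8284 counts and stood at 61.82 TPM in library 1 and 59.91 TPM in library 2 (60.9 ± 1.35, SD, n = 2). That level was above 97.2% of nuclear protein-coding genes, and its log2 ratio was -0.06, with an interval of -0.11 to -0.02. The other 5 members of this group stood at 2.16 TPM or less in both libraries.

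Klf1 (chr8:84901928-84905291, plus strand), the erythroid Krüppel-like activator, had 283 counts in library 1 and 75 in library 2. It stood at 2.16 and 0.51 TPM (1.33 ± 1.17, SD, n = 2), and its log2 ratio of -2.16 (-2.55 to -1.79) was the lowest of all members, a 4.47-fold lower share. Gata1 (chrX:7959260-7978071, minus strand), the master factor of the erythroid program, had 317 and 191 counts and a log2 ratio of -0.97 (-1.24 to -0.71). Its level was 1.89 TPM in library 1 against 1.54 in library 2 (1.72 ± 0.247), a smaller gap than its counts show. The log2 ratio of the TPM values was -0.30. In library 2, 39.3% of the TPM of Gata1 was assigned to the transcript Gata1-203 on 13 counts, and none in library 1.

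Gfi1b (chr2:28609450-28621982, minus strand), a repressor that both erythroid cells and megakaryocytes need, had 180 and 100 counts, with a log2 ratio of -1.09 (-1.46 to -0.73) and a level of 1.85 and 1.66 TPM. By TPM its log2 ratio was -0.16, no longer 2-fold. Tal1 (chr4:115056426-115071755, plus strand), the basic helix-loop-helix partner of GATA1, had 259 and 221 counts, 0.65 and 0.49 TPM and a log2 ratio of -0.47 (-0.74 to -0.21). Zfpm1 (chr8:122282141-122337251, plus strand), which encodes the GATA1 cofactor FOG1, had 194 and 134 counts, 1.39 and 1.33 TPM and a log2 ratio of -0.78 (-1.11 to -0.45). The group thus ran from a factor with near equal shares to one more than 4-fold apart, with a median of -0.88.

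The receptor and iron uptake genes differed in the sign of their ratio. Epor (chr9:21958897-21963506, minus strand), the receptor for the hormone that keeps erythroid progenitors alive, had 11 counts in library 1 and 24 in library 2, or 0.07 and 0.13 TPM. It was the 1 erythroid-restricted member with a positive log2 ratio, 0.88, and its interval of -0.20 to 2.06 included 0, so no difference was detectable at this depth. Tfrc (chr16:32608920-32632794, plus strand), the transferrin receptor that all dividing cells use to take up iron, had 3825 and 3316 counts, stood at 11.04 and 8.12 TPM (9.58 ± 2.06) and had a log2 ratio of -0.45 (-0.52 to -0.38). Slc25a37 (chr14:69241848-69285112, minus strand), mitoferrin 1, carries iron into mitochondria for heme synthesis. It had 1663.53 and 1540.53 counts, 3.6 and 3.0 TPM and a log2 ratio of -0.35 (-0.46 to -0.25). Slc25a37 was also the 1 member whose reads were partly shared with other genes, with a deposited posterior SD of the count of 0.79 and 1.4, and the other 28 had 0.

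The band 3 and Rh complex genes were all lower in library 2, with a median log2 ratio of -1.18 and 4 of 5 past 2-fold. Of all 12081 genes, 49.5% were lower by any amount and 5.34% were 2-fold or more lower. The list was chosen with this ratio in view, so nothing is read from the counts by group here and below. Slc4a1 (chr11:102348824-102366203, minus strand), band 3 or the anion exchanger of the red cell, had 769 counts in library 1 and 382 in library 2, at 1.79 and 0.81 TPM (1.30 ± 0.693). Its log2 ratio was -1.25 (-1.43 to -1.07). Epb42 (chr2:121017891-121037072, minus strand), protein 4.2, which joins band 3 to ankyrin, had 243 and 136 counts, 1.10 and 0.53 TPM and a log2 ratio of -1.08 (-1.39 to -0.77).

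Rhag (chr17:40811126-40840754, plus strand), the ammonium channel protein that carries the Rh antigen complex to the surface, had 218 and 114 counts, 1.03 and 0.48 TPM and a log2 ratio of -1.18 (-1.52 to -0.84). Rhd (chr4:134864536-134896172, plus strand), the Rh antigen protein, had 345 and 161 counts, 3.69 and 1.11 TPM (2.40 ± 1.82) and a log2 ratio of -1.34 (-1.62 to -1.07). Per length, Rhd stood above Rhag in both libraries, 3.58 times in library 1 and 2.31 times in library 2, and on protein-coding transcripts alone 2.01 and 2.31 times. Ank1 (chr8:22974844-23150497, plus strand), the ankyrin that links band 3 to spectrin, was the exception to the 2-fold difference, with 458 and 335 counts and a log2 ratio of -0.69 (-0.90 to -0.49). Its TPM of 0.77 and 0.80 had the opposite sign, at a log2 TPM ratio of 0.06.

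Of the 3 membrane skeleton genes, 1 was 2-fold or more lower, where 5.34% of all 12081 genes were. Sptb (chr12:76580488-76710547, minus strand), the beta spectrin of red cells, had 1211 counts in library 1 and 601 in library 2, 1.52 and 0.66 TPM (1.09 ± 0.608) and a log2 ratio of -1.25 (-1.40 to -1.11). Tmod1 (chr4:46038935-46116032, plus strand), the tropomodulin that caps the short actin filaments, rested on 37 and 25 counts, or 0.16 and 0.08 TPM, with a log2 ratio of -0.81 (-1.60 to -0.04). Epb41 (chr4:131923413-132075321, minus strand), protein 4.1, which many cells make, had 4766 and 5032 counts and a log2 ratio of -0.16 (-0.22 to -0.11), a value that the interval of Tmod1 includes. It stood at 14.58 and 16.14 TPM (15.4 ± 1.10), above 87.5% of nuclear protein-coding genes, with a log2 TPM ratio of 0.15. Per length, the whole gene Epb41 stood 9.59 times above Sptb in library 1 and 24.5 times in library 2, with most of its TPM on transcripts annotated as not coding for protein. On protein-coding transcripts alone, Epb41 was at 0.48 times the level of Sptb in library 1 and 7.53 times in library 2, so the order turned in library 1. That turn rests on how reads were split among the transcripts of Epb41. The coding transcript Epb41-202 had 0 and 1575.6 counts and the processed transcript Epb41-215 had 4092.84 and 2307.4.

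The other surface proteins were all lower in library 2, and 2 of 4 were past 2-fold. Among all 12081 genes, 49.5% were lower by any amount and 5.34% were 2-fold or more lower. Aqp1 (chr6:55336432-55348555, plus strand), the water channel, had 863 and 406 counts, 3.58 and 1.49 TPM (2.54 ± 1.48) and a log2 ratio of -1.33 (-1.50 to -1.16). It was the only widely expressed member 2-fold or more lower after division by total counts. Kel (chr6:41686330-41704339, minus strand), the Kell blood group peptidase, had 155 and 71 counts, 0.76 and 0.27 TPM and a log2 ratio of -1.37 (-1.80 to -0.96). Ermap (chr4:119175457-119190011, minus strand), the erythroid adhesion protein of the Scianna blood group, had 534 and 317 counts, 2.04 and 1.0 TPM and a log2 ratio just inside 2-fold at -0.995 (-1.20 to -0.79). Tspan33 (chr6:29694222-29718559, plus strand), a tetraspanin, had 252 and 150 counts, 1.24 and 0.73 TPM and a log2 ratio of -0.99 (-1.29 to -0.69).

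Both carbonic anhydrases were lower in library 2, and the glycolytic side enzyme was higher. Car1 (chr3:14766216-14808368, minus strand) and Car2 (chr3:14886273-14900770, plus strand) encode enzymes that turn carbon dioxide into bicarbonate, and Car2 is also made by other cells. Car1 had 762 and 423 counts, stood at 7.84 and 3.87 TPM (5.86 ± 2.81), the highest of the erythroid-restricted members, and had a log2 ratio of -1.09 (-1.27 to -0.92). Car2 had 2000 and 1238 counts, 12.78 and 7.0 TPM (9.89 ± 4.09) and a log2 ratio of -0.93 (-1.04 to -0.83). Per length Car2 stood 1.63 times above Car1 in library 1 and 1.81 times in library 2. Bpgm (chr6:34476207-34505613, plus strand), which makes the phosphate compound that lowers the oxygen affinity of hemoglobin, had 418 counts in library 1 and 767 in library 2, 2.6 and 3.4 TPM and a log2 ratio of 0.63 (0.46 to 0.81). Its whole interval lay above 0, as did that of Xpo7.

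The remaining members ranged from a 2-fold lower share to a slightly higher one. Trim10 (chr17:36869574-36877833, plus strand), a RING finger protein of late erythroid cells, had 196 and 97 counts, 0.97 and 0.42 TPM and a log2 ratio of -1.26 (-1.62 to -0.90). Hemgn (chr4:46393989-46413506, minus strand), hemogen, a nuclear protein of blood progenitors and erythroid cells, had 622 and 377 counts, 2.94 and 1.59 TPM and a log2 ratio of -0.97 (-1.15 to -0.78). Tmcc2 (chr1:132356315-132391281, minus strand), a membrane protein of the endoplasmic reticulum, had 546 and 543 counts, 1.92 and 1.45 TPM and a log2 ratio of -0.25 (-0.43 to -0.08).

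Xpo7 (chr14:70654246-70766628, minus strand), a nuclear export receptor, had 2565 and 3640 counts, 1.72 and 2.15 TPM and a log2 ratio of 0.26 (0.19 to 0.34). Trim58 (chr11:58640465-58652404, plus strand), a ubiquitin ligase of late erythroid cells, had 2 and 3 counts and 0.01 TPM in both libraries. It is below the count minimum and was given no ratio.

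**Figure D3:**
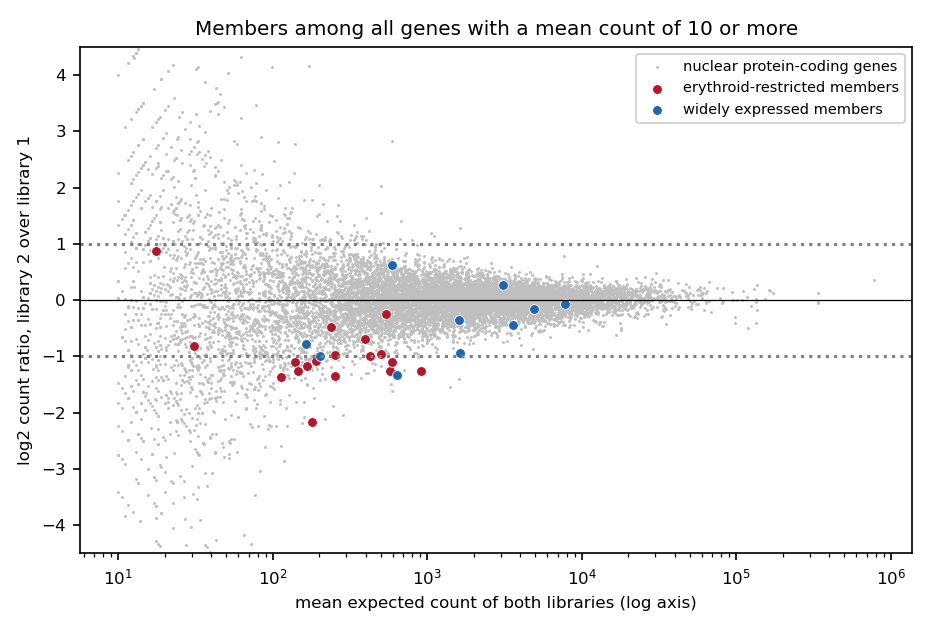
The log2 count ratio of library 2 over library 1 against the mean estimated count on a log axis, for genes that passed the count minimum in gray and the members in red (erythroid-restricted) and blue (widely expressed), with dotted lines at 2-fold. Of the gray genes 11850 are drawn, and 231 at 0 in a library or past 4.5 in either direction are not. Most red points lie near the lower dotted line, between about -1.4 and -0.7.

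Transcript assignments were not used to choose the members. On the median, 100% of the TPM of an erythroid-restricted member lay on transcripts annotated as protein-coding in either library, and 90.2% and 97.7% for a widely expressed member. Of 28 members, 17 had 90% or more on protein-coding transcripts in both libraries, and Epb41, Zfpm1 and Epb42 had under 50% in both. These shares were not computed over all genes, so whether they are usual for these libraries is not known. Estimates for a transcript rest on fewer reads than those for its gene, and short transcripts turn few reads into many TPM. Transcript types are those of GENCODE M21, and a type may differ in M4, the release named for the deposited tables.

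Epb41 had the lowest protein-coding share, 5.01% in library 1 and 30.8% in library 2. The processed transcript Epb41-215 took 57.8% and 25.9% of its TPM and the processed transcript Epb41-209 took 31.8% and 31.4%. The coding transcript Epb41-202 was at 0 in library 1 and held 18.2% in library 2. Protein-coding transcripts of Epb41 thus summed to 0.73 TPM in library 1 against 4.97 in library 2, while the level of the whole gene was near equal. Tfrc put 67.3% and 76.8% of its TPM on protein-coding transcripts, with the retained intron transcript Tfrc-205 at 22.8% and 12.3%.

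Zfpm1 had 31.7% and 18.9% on protein-coding transcripts, with the processed transcripts Zfpm1-202 leading in library 1 at 51.5% and Zfpm1-204 in library 2 at 73.2%, on 46 and 35.9 counts. Epb42 had 41.8% and 47.2%, with the processed transcript Epb42-203 at 50.1% in library 1 and Epb42-206 at 40.8% in library 2. Gfi1b had 62.9% and 28.9% by TPM but 94.7% and 82.8% by counts, since the processed transcript Gfi1b-202 took 37.0% and 70.8% of the TPM on 9.59 and 17.15 counts. Ank1 had 96.1% in library 1 and 48.8% in library 2, where the retained intron transcript Ank1-211 took 48.8% of the TPM on 8.11 counts. On protein-coding transcripts alone, the log2 count ratio was -0.87 for Zfpm1, -0.70 for Epb42, -1.28 for Gfi1b and -0.72 for Ank1. Epb42, at -1.08 over the whole gene, thus lay inside 2-fold on that measure.

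The whole TPM of Nfe2 lay on protein-coding transcripts, spread over several of them. Nfe2-201 held 62.7% and 68.6% of the TPM of Nfe2, followed by Nfe2-206 with 17.0% and 16.8% and Nfe2-209 with 15.2% and 10.6%. Car1 and Car2 each had 1 main transcript: Car1-203 held 100% of Car1 in both libraries, and Car2-201 held 99.7% and 100% of Car2. In Rhd, the retained intron transcript Rhd-202 took 43.9% of the TPM in library 1 and 0 in library 2. On the protein-coding transcript alone, the log2 count ratio of Rhd was -0.98 in place of -1.34.

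**Figure D4:**
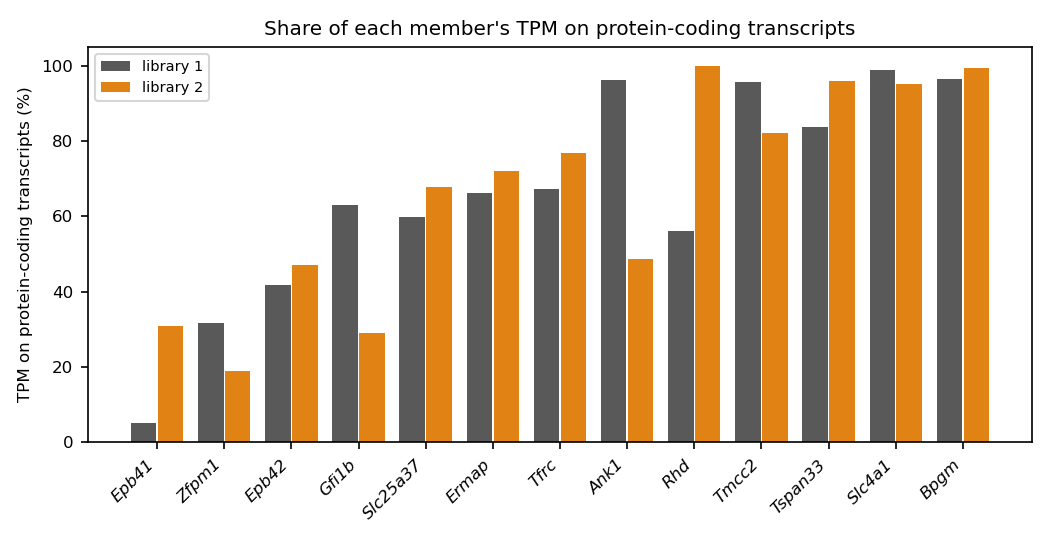
The percent of a gene's TPM on transcripts annotated as protein-coding, gray for library 1 and orange for library 2, for the 13 members with under 99% in either library, ordered by the mean. Epb41, Zfpm1 and Epb42 lie under 50% in both libraries, and Gfi1b, Ank1 and Rhd differ most between the libraries.

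Other genes of the same pathways had medians nearer to equal shares than the erythroid-restricted members. Beside the counts of these lists, 5.34% of all 12081 genes were 2-fold or more lower and 4.63% higher. Of all nuclear protein-coding genes, 42.4% reached 1 TPM in both libraries. Of 21 partners of the erythroid factors, 20 reached 1 TPM in both libraries, and 0 of 21 were 2-fold or more lower or higher, with a median log2 ratio of -0.15. The most abundant were Lmo2, the bridge between TAL1 and LDB1, at 24.91 and 25.35 TPM, Bach1, a heme-sensing repressor, at 24.39 and 24.89 TPM, and Ikzf1, the lymphoid and myeloid factor Ikaros, at 25.82 and 22.16 TPM. The lowest ratio among the partners was -0.95, for Sox6, a repressor of embryonic globin genes, on 131 and 80 counts. Sox6 and the genes Icam4 and Bcam below were named after their values were seen.

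Of 19 other membrane and skeleton genes, 13 reached 1 TPM in both libraries, where 42.4% of nuclear protein-coding genes did. The median log2 ratio of the 18 that passed the count minimum was -0.11, with 3 of 18 2-fold or more lower and 0 higher. Of all genes, 5.34% were as far below and 4.63% as far above. The most abundant were Actb, cytoplasmic actin, at 1882.62 and 1938.42 TPM, Tpm3, a tropomyosin, at 291.36 and 312.01 TPM, and Add3, gamma adducin, at 77.29 and 79.85 TPM, which many cells make. Among the lower genes was Icam4, the Landsteiner-Wiener antigen, with 44 and 11 counts and a log2 ratio of -2.24 (-3.35 to -1.27). Bcam had 0 counts in library 1 and 15 in library 2 and was below the count minimum.

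Of 15 genes of erythropoietin signalling, 14 were matched, 10 reached 1 TPM in both libraries and 0 were 2-fold or more apart, with a median log2 ratio of -0.34. Ptpn6, the phosphatase that ends the receptor's signal, stood at 250.57 and 280.12 TPM, the kinase Lyn at 82.43 and 94.81 TPM and the adaptor Grb2 at 31.04 and 19.05 TPM. Of 13 genes of maturation and organelle clearance, 12 reached 1 TPM in both and 0 were 2-fold or more apart, with a median of -0.25. Bnip3l, the mitophagy receptor, stood at 45.96 and 39.51 TPM, Map1lc3b, an autophagosome protein, at 34.32 and 43.91 TPM and the histone deacetylase Hdac2 at 22.35 and 23.30 TPM.

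Globins and lymphocyte genes were lower in library 2 beside the erythroid-restricted members. The 4 globin genes summed to 104.4 TPM in library 1 against 51.38 in library 2. All 4 were lower, 2 of them past 2-fold, with a median log2 ratio of -0.90. Of all genes, 49.5% were lower by any amount and 5.34% were 2-fold or more lower. The highest were Hba-a2 at 67.01 and 27.31 TPM, Hbb-bt at 12.81 and 10.44 TPM and Hbb-bs at 13.60 and 8.51 TPM. Near-identical globin copies share reads, so the split between them is uncertain.

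The 9 genes of T and NK cells summed to 35.68 and 20.20 TPM, with none at 0. In library 2, 8 of 9 were lower and 4 past 2-fold, with a median log2 ratio of -0.59. The shares of all genes were 49.5% lower by any amount and 5.34% past 2-fold. Among the T and NK cell genes Gzma, a granule protease, stood at 12.06 and 5.34 TPM. Cd3g, a T cell receptor subunit, stood at 9.87 and 7.17 TPM and Ncr1, an NK cell receptor, at 4.82 and 2.31 TPM. Markers of another cell type thus moved with the members, and their part in the members' ratios was not tested.

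Other marker lists had medians nearer 0 or above it. The median log2 ratio was 0.18 for monocytes and macrophages (Lyz2, F13a1 and Ccr2 leading), -0.12 for neutrophils (S100a8, S100a9 and Ngp) and -0.004 for mast cells, basophils and eosinophils. In the last list Mcpt8 stood at 81.50 and 93.62 TPM, Prg2 at 74.84 and 65.39 TPM and Prss34 at 62.19 and 76.19 TPM, with a sum of 302.65 and 330.61 TPM. It was 0.06 over the 7 megakaryocyte and platelet genes that passed the count minimum, of which Gp1bb was at 0 in library 1. The 9 stem and progenitor genes summed to 11.84 and 12.11 TPM (Cd34, Flt3 and Meis1 leading, Procr at 0 in both), with a median of -0.33 over 6. The 9 endothelial and stromal genes summed to 11.46 and 11.98 TPM (Pecam1, Cxcl12 and Bglap leading, Emcn and Tek at 0 in both), with a median of -0.31 over 6.

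**Figure D5:**
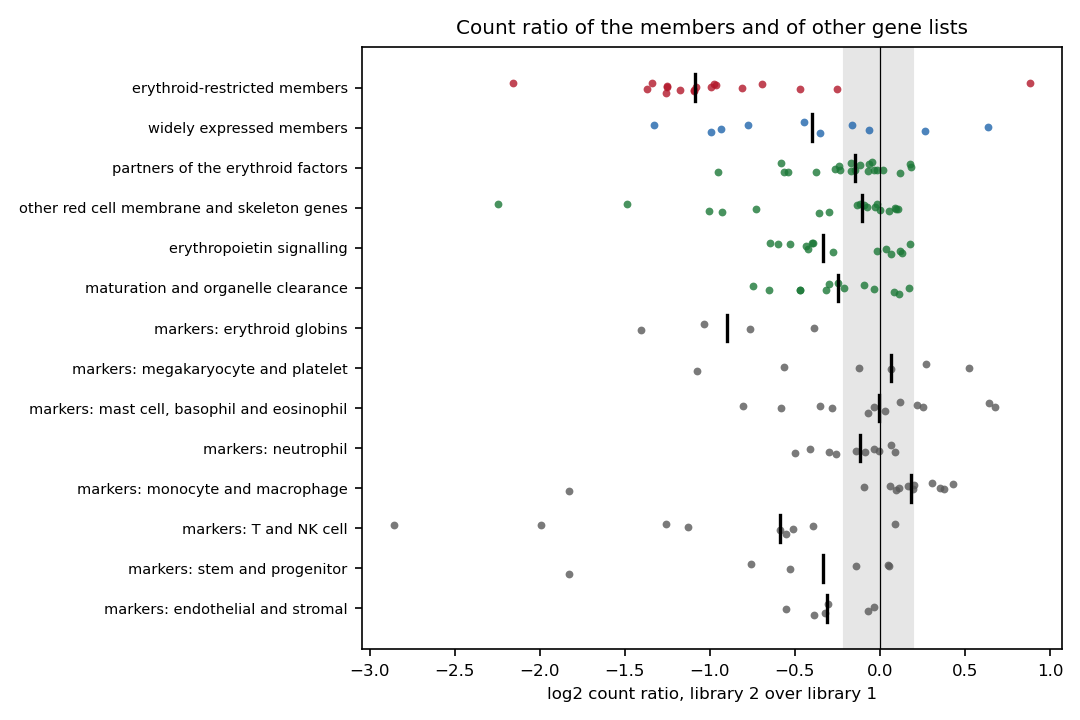
The log2 count ratio of library 2 over library 1 for each gene that passed the count minimum in the member sets (red and blue), the related gene lists (green) and the marker lists (gray), with a black bar at each median and a gray band at the middle 50% of all genes. Gp1bb, at 0 in library 1, is not drawn. The bars of the erythroid-restricted members at -1.09, the globins at -0.90 and the T and NK cell genes at -0.59 lie farthest left.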

How the data were processed

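Total RNA-seq of 2 libraries of 1 group was used. The authors' deposited tables hold expected counts (estimated read counts per gene or transcript, not normalized), TPM over all rows, posterior mean TPM and the percent of a gene's TPM on each transcript. The deposited text files name mm10 and GENCODE M4 as genome build and annotation. The aligner and quantifier are not given in the sources used here. Symbols, transcript types and coordinates came from GENCODE M21 by ID without version: 42462 of 43346 mouse gene IDs matched, 884 did not, and 21461 nuclear protein-coding genes were kept. Ahsp and Fam132b, of the signalling list, were not analysed here. Some genes of the other lists are not reported here by name and remain in their counts and medians.

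Counts were divided by each library's total, and ratios were given where the mean count reached 10. Scaling alternatives used edgeR 4.0.16 and DESeq2 1.42.0 (R 4.3.3) for factors only. Intervals came from scipy 1.17.1 and were checked on simulated data. Members and lists were chosen with earlier results of these data known. All members and the 3 genes of highest mean TPM in each other list were named, transcripts for members at 5 TPM or under 50% protein-coding share (those of Gata1, Rhd and Ank1 were added after their values were seen).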

Additional observations from a re-analysis of the deposited data

How the results depend on the processing

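No paired analysis was possible because the labels give a single group, so no groups share replicate numbers. Scaling by total counts, TMM or DESeq2 size factors gave 11 members and 10 erythroid-restricted members 2-fold or more lower; scaling by nuclear protein-coding counts gave 13 and 11, and 2 widely expressed members in place of 1. At 1.5-fold, 19 members were lower and 2 higher, with 4 widely expressed members lower and 1 of each set higher. Ratios of deposited TPM moved the median of the widely expressed members from -0.40 to -0.16 and 7 of 29 single members. No member called 2-fold lower changed sign, and 2 others did by TPM (Ank1 0.06, Epb41 0.15). Over nuclear protein-coding genes alone, the median levels became 4.40 TPM for erythroid-restricted, 12.4 TPM for widely expressed and 6.11 TPM for all members. With 1 library left out, the median level ran from 0.66 to 1.52 TPM for erythroid-restricted, 3.20 to 3.59 TPM for widely expressed and 1.11 to 1.85 TPM for all members. The number of erythroid-restricted members past the limit in both libraries was 12 at 0.5 TPM and 1 at 2 TPM, against 7 at 1 TPM; 7 of all members passed 2 TPM. Counting depth limits Epor, Tmod1 and Trim58. With 1 library on each side, no value here separates conditions.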
